A study of Mus musculus with 2 samples.

Results

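Small nucleolar RNAs (snoRNAs) and small Cajal body RNAs (scaRNAs) were examined in total RNA of the adrenal gland. They were taken as every annotated gene whose symbol starts Snord, Snora or Scarna, which gave 150 of 55536 annotated genes. By class, 99 were Snord genes, 42 were Snora genes and 9 were Scarna genes. The 150 genes carried 147 distinct symbols, because Snora43, Snord80 and Snora16a each stood on a pair of gene identifiers. The annotation typed 142 of them as snoRNA, 7 as scaRNA and 1, Snord43, as miRNA, so the symbols and the annotated types matched for nearly all. A further 1409 genes of these types had other symbols and were used for comparison only.

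All libraries came from 1 group: adrenal glands of female B6CASTF1/J mice, an F1 hybrid strain, 25 days old and with no treatment named in the labels. There were 2 libraries, replicate 1 and replicate 2, each made from 300 ng of total RNA with a directional kit and ERCC spike-ins, which are synthetic RNAs added to the sample. The tissue labels name a different animal for each library, whereas both share a donor field and a library description, so the spread between the libraries may be technical. The design therefore holds no treated and control groups, and the comparisons are among the RNA classes, between the libraries and between the deposited quantifications.

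Box C/D snoRNAs, which carry Snord symbols, guide the methylation of the ribose of target RNAs and work with the methyltransferase fibrillarin. Box H/ACA snoRNAs, which carry Snora symbols, guide the conversion of uridine to pseudouridine and work with the enzyme dyskerin. Most act on ribosomal RNA in the nucleolus, and a small number are needed to cut the ribosomal RNA precursor. The scaRNAs reside in Cajal bodies and guide the same modifications on the RNAs of the spliceosome. In mammals most of these RNAs are cut out of the introns of host genes, many of which encode ribosomal proteins or parts of the translation machinery.

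Short sequence boxes near the ends mark each class, and they were searched on the transcribed strand of the GENCODE M21 transcripts, from which the sequences below were also read. The C box letters TGATGA within the first 26 bases and the D box letters CTGA within the last 20 bases were both present in 68 of 99 Snord genes (68.7%), against 0.147% of 19788 other annotated transcripts of 60 to 420 bases. The letters ACA followed by exactly 3 bases at the end were present in 35 of 42 Snora genes (83.3%), against 1.75% of those other transcripts. Among the 9 Scarna genes, 4 held both the C and the D letters and 2 held the terminal ACA. Overlap between motifs was allowed, and a missing match says only that these letters were not in the window.

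The box C/D members shown here span the lengths that the gene table could and could not read, with the C box TGATGA and the D box CTGA in capitals where they were found. Snord15a (chr7:99482785-99482932, minus strand) and Snord15b (chr7:99479563-99479707, minus strand) lie in Rps3, and Snord22 (chr19:8725866-8725991, plus strand) lies in Snhg1. Snord118 (chr11:69073427-69073561, plus strand) lies in no same-strand gene. Snord16a (chr9:64175423-64175521, plus strand) lies in Rpl4, and Snord116l1 (chr7:59894620-59894713, minus strand) lies in Snhg14. All coordinates are on mm10.
Snord15a: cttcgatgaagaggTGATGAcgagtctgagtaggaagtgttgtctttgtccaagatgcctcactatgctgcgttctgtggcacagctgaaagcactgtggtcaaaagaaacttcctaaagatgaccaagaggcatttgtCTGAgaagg
Snord15b: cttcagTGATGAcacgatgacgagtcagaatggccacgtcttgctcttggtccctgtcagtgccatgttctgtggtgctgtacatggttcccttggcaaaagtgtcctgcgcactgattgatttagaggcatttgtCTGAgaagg
Snord22: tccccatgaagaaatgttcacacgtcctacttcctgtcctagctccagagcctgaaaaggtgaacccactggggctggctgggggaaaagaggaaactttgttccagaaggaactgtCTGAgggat
Snord118: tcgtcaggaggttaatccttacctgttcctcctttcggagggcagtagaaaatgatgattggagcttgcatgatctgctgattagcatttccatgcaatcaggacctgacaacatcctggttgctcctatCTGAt
Snord16a: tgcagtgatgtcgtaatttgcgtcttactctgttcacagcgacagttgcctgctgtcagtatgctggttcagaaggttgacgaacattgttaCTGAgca
Snord116l1: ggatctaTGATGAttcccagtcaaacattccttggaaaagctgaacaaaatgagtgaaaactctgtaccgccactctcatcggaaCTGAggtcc
Snord15a and Snord15b, the U15 snoRNAs, were 148 and 145 bases long and aligned with 66.0% identity. Both ended in the D box followed by the same number of bases (5).

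The box H/ACA pair Snora73a (chr4:132352775-132352979, minus strand) and Snora73b (chr4:132352322-132352526, minus strand), known as U17, is shown because its members are near copies. Capitals mark the 7 positions at which they differ.
Snora73a: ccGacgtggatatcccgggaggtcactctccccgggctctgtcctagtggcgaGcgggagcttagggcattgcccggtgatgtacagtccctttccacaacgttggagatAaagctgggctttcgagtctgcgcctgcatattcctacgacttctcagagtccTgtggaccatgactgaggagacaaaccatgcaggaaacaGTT
Snora73b: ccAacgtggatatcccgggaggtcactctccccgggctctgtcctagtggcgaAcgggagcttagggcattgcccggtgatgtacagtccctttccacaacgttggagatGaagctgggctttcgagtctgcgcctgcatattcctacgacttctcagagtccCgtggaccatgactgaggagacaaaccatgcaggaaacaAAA
Both were 205 bases long and identical at 198 positions (96.6%), with a longest shared run of 56 bases. The differing positions, counted from 1 at the 5′ end, were 3, 54, 111 and 164 and the last 3 bases. Only a read of 56 bases or fewer could lie wholly between those positions and fit both copies. The deposited posterior SD was 1.24% of the count for Snora73a and 1.15% for Snora73b in replicate 1.

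Snora23 (chr7:110046364-110046547, plus strand), Scarna6 (chr1:87784556-87784820, plus strand) and Scarna13 (chr12:105031075-105031349, minus strand) are shown as longer members with a single copy, on mm10. Capitals mark the last ACA of Snora23 and of Scarna13 and the C and D boxes of Scarna6.
Snora23: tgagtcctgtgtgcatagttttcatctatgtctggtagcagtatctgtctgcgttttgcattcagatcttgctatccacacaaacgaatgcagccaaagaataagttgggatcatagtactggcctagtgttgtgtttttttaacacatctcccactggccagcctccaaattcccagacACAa
Scarna6: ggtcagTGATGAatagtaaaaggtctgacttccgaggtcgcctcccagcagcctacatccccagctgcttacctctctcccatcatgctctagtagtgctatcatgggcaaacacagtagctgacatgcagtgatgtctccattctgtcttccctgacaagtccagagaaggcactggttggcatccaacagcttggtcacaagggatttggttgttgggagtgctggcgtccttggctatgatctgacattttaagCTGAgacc
Scarna13: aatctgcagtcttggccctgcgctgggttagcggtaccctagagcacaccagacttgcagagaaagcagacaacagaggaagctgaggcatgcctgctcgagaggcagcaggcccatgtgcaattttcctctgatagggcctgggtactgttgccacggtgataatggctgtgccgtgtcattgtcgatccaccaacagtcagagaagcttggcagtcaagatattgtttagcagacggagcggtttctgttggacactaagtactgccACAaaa
In the annotated Snora23 transcript the last ACA was followed by 1 base, and in Scarna13 by 3 bases. The last ACA of Snora23 overlaps an earlier ACA, not in capitals, which was followed by exactly 3 bases. Scarna6 had its C box at position 7 and its D box 4 bases before the end.

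The gene table could not hold a count for most box C/D members, because of their length. Across the features of the table with a single transcript, the deposited effective length was the annotated length minus 99 for all 32326 of at least 100 bases. It was 0 for all 28571 shorter ones, and none of those held a count. Snord genes ranged from 64 to 238 bases (median 84), Snora genes from 121 to 205 bases (median 132.5) and Scarna genes from 70 to 414 bases (median 140). Accordingly 87 of 99 Snord genes, no Snora gene (0 of 42) and 2 of 9 Scarna genes were under 100 bases, and these 89 members were listed at 0 whatever the RNA held. Snord16a missed the limit by a single base, with a length of 99.

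The remaining 61 members comprised 12 Snord, 42 Snora and 7 Scarna genes. Of these, 46 held some count in at least 1 library (6 Snord, 33 Snora and 7 Scarna), and 36 reached 1 TPM (a level per effective length, scaled to a fixed sum) in both libraries. Those 36 were 24.0% of the 150 members and 59.0% of the 61 readable ones, against 22.4% of all annotated genes and 23.4% of annotated genes of at least 100 bases. Among snoRNA and scaRNA genes with other symbols, 4.97% reached 1 TPM in both libraries. By class, 5 Snord, 25 Snora and 6 Scarna genes reached that level. At least 10 counts in both libraries were held by 19 members, of which 5 were Snord, 10 Snora and 4 Scarna.

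**Figure D1:**
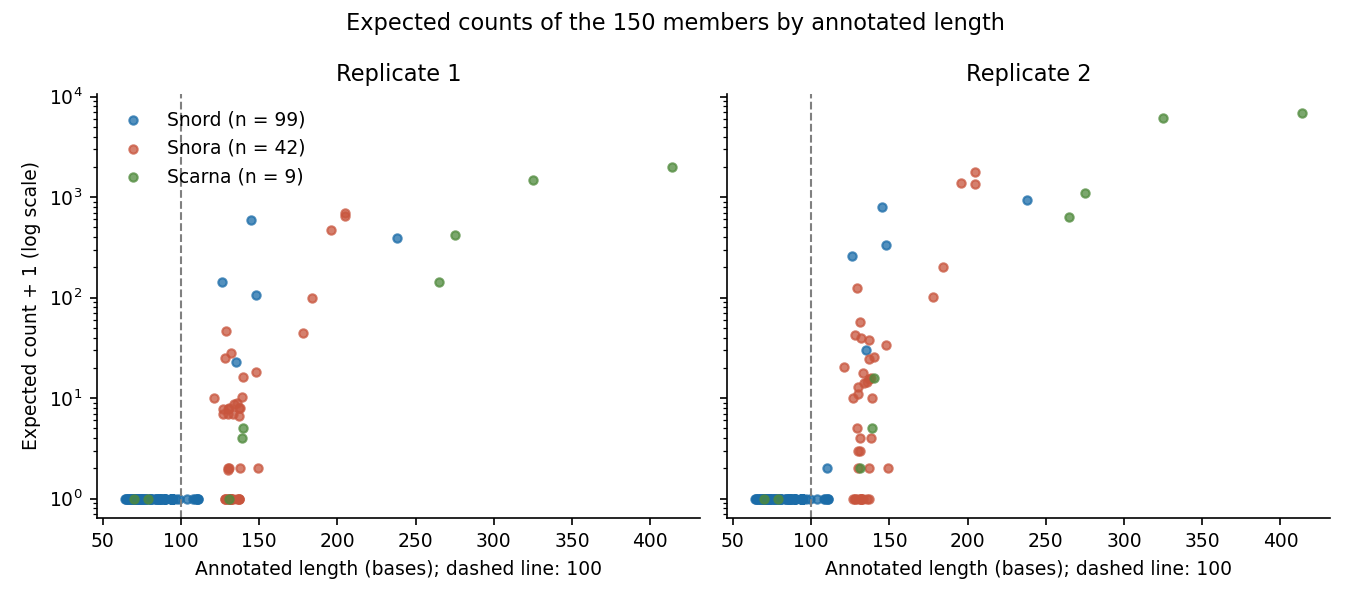
Expected count plus 1 (log axis) of each of the 150 members against its annotated length in bases, in replicate 1 (left) and replicate 2 (right), coloured by class. No member left of the dashed line at 100 bases held a count, and the Scarna genes of 265 to 414 bases lay among the highest.

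Counting depth differed between the libraries, with 19366343 expected counts in replicate 1 and 33728646 in replicate 2. Nuclear protein-coding genes took 39.1% of the counts in replicate 1 and 66.1% in replicate 2. All 6 adrenal cortex markers and all 5 adrenal medulla markers were above 1 TPM in both libraries, with the cortex markers summing to 9199 TPM in replicate 1 and 16915 TPM in replicate 2. The 3 liver markers Alb, Apoa1 and Apob summed to 171.9 TPM in replicate 1 and 3.66 TPM in replicate 2, so all 3 were higher in replicate 1. The brown fat markers Ucp1 and Cidea summed to 261.9 TPM (replicate 1) and 257.0 TPM (replicate 2). Where a difference between the libraries is given below, the part of the liver RNA and of the lower coding share of replicate 1 in it was not tested.

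The members together held 7423 expected counts in replicate 1 and 22338 in replicate 2. These were 0.0383% of all counts in replicate 1 (95% Wilson interval 0.0375 to 0.0392%) and 0.0662% in replicate 2 (0.0654 to 0.0671%). The intervals cover counting error only. The share was thus higher in replicate 2 beyond counting error. The Scarna class took 53.8% of the members' counts in replicate 1 and 65.8% in replicate 2, the Snora class 29.4% in replicate 1 and 23.7% in replicate 2, and the Snord class 16.8% in replicate 1 and 10.6% in replicate 2. Scarna2 and Scarna10 alone held 46.2% of the members' counts in replicate 1 and 57.9% in replicate 2. The 8 members with the highest counts held 89.4% in replicate 1 and 90.6% in replicate 2. The counts of the members of at least 100 bases thus rested on a small number of RNAs, and shorter members could not enter these shares.

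Summed TPM gave the classes a different weight, since it divides by effective length. It averaged 1380 ± 87.4 TPM for Snord, 1795 ± 287 TPM for Snora and 1433 ± 636 TPM for Scarna (SD, n = 2 libraries each). The class sums differed by less than the spread between the libraries for Scarna against both others. On the annotated length in place of the effective length, the mean sums were 559 TPM (Snord), 967 TPM (Snora) and 1245 TPM (Scarna). Scarna had 829 TPM in replicate 1 and 1662 TPM in replicate 2. Snora had 835 TPM in replicate 1 and 1100 TPM in replicate 2. Scarna thus had the highest mean on that scale, but Snora was slightly above it in replicate 1. An effective length of 27 bases, as Snord22 had, makes a TPM large for few counts, so levels of different members are given on both scales where their order matters.

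Among scaRNAs, Scarna2 was the longest member (414 bases, chromosome 3) and lay in no same-strand gene. Its human counterpart guides methylation of the U2 spliceosomal RNA. It held 1968 counts (381 TPM) in replicate 1 and 6887 counts (695 TPM) in replicate 2. Scarna10, known in human cells as U85, is a composite of both box types that acts on the U5 spliceosomal RNA. It overlapped part of an exon of Ncapd2 on chromosome 6 and held 1462 counts (395 TPM) in replicate 1 and 6056 counts (852 TPM) in replicate 2. These were the leading members by annotated length, with Scarna10 at 535 TPM and Scarna2 at 504 TPM as means on that scale, closer to each other than either was between the libraries.

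Scarna13, the H/ACA scaRNA known as U93, lay in an intron of Snhg10. It held 416 counts (144 TPM) in replicate 1 and 1104 counts (199 TPM) in replicate 2. Scarna6, a composite scaRNA known as U88, lay in an intron of the autophagy gene Atg16l1 and held 141 counts (51.9 TPM) in replicate 1 and 629 counts (120.5 TPM) in replicate 2. Scarna3a and Scarna3b held 15 counts or fewer in each library, and Scarna8 a single count in replicate 2. Scarna17 (79 bases) and Scarna9 (70 bases) were under the length limit. All 4 well-counted scaRNAs had a higher TPM in replicate 2.

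Among box H/ACA members the U17 pair and Snora74a stood highest. U17 is needed for early cleavages of the ribosomal RNA precursor on the way to the small subunit. Snora73b held 691 counts (398 TPM) in replicate 1 and 1756 counts (527 TPM) in replicate 2. Snora73a held 653 counts (376 TPM) in replicate 1 and 1336 counts (401 TPM) in replicate 2, which was slightly below its near copy in each library. Snora74a, known as U19, held 469 counts (295 TPM) in replicate 1 and 1362 counts (447 TPM) in replicate 2. The 3 members exceeded every other Snora gene in both libraries on the TPM scale and on the scale by annotated length.

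A lower tier of Snora genes followed. Snora44, in an exon of Snhg12, held 45.4 counts (92.5 TPM) in replicate 1 and 123 counts (130.4 TPM) in replicate 2. Snora23, in an intron of the nuclear import gene Ipo7, held 99 counts (71.1 TPM) in replicate 1 and 202 counts (75.6 TPM) in replicate 2. Snora78, in an intron of Snhg9, held 24 counts (50.5 TPM) in replicate 1 and 41 counts (45.0 TPM) in replicate 2, so it lay below Snora23 in both libraries. Snora17 was at 50.0 TPM (replicate 1) and 37.6 TPM (replicate 2), Snora81 at 33.8 TPM (replicate 1) and 40.5 TPM (replicate 2), and Snora57 at 21.2 TPM (replicate 1) and 21.4 TPM (replicate 2). Snora7a had 20.8 ± 2.55 TPM, beside 21.3 ± 0.17 TPM for Snora57 (SD, n = 2 libraries each). The ranges of Snora78 and Snora17 overlapped, and so did those of Snora57 and Snora7a, so the order within these pairs is not resolved.

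At the low end, 9 Snora genes of readable length were at 0 in both libraries: both Snora16a genes, Snora19, Snora20, Snora3, Snora35, Snora36b, Snora41 and Snora75. In 5 of them (both Snora16a genes, Snora19, Snora3 and Snora75) the sequence also lies in another annotated transcript, so a limit from their own 0 counts does not bound them. For the other 4 the limit that 0 counts set is 3 counts, which comes to 5.55 to 6.32 TPM in replicate 1 and 2.89 to 3.29 TPM in replicate 2. Snora35 lies in the serotonin receptor gene Htr2c, known for expression in brain, and that host was listed at 0 in replicate 1 and at 0.01 TPM in replicate 2. Snora41 was at 0, while its host Eef1b2 had 121 TPM in replicate 1 and 196 TPM in replicate 2.

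Among box C/D members Snord15b had the highest mean TPM of all 150 genes. It held 590 counts (784 TPM) in replicate 1 and 800 counts (553 TPM) in replicate 2, and ranked 4 by annotated length (258 TPM). Its partner Snord15a, in another intron of the ribosomal protein gene Rps3, held 105 counts (131 TPM) in replicate 1 and 334 counts (217 TPM) in replicate 2. Snord15b therefore exceeded Snord15a in both libraries, although both are carried by the same host. The sequence of Snord15b also lies within a retained-intron transcript of Rps3, and that of Snord15a lies in no other annotated transcript, so reads of that transcript and of Snord15b cannot be told apart.

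Snord22, the U22 snoRNA needed for maturation of the small subunit RNA, held 141 counts (318 TPM) in replicate 1 and 259 counts (306 TPM) in replicate 2. Its host Snhg1 encodes no protein and was at 10.8 TPM (replicate 1) and 16.2 TPM (replicate 2). Snord17, the longest Snord gene (238 bases, in an intron of the sorting nexin gene Snx5), held 391 counts (172 TPM) in replicate 1 and 936 counts (214 TPM) in replicate 2. Snord118, known as U8, is needed for maturation of the large subunit RNAs and is mutated in a human brain disorder with calcifications and cysts. It held 22 counts (37.3 TPM) in replicate 1 and 29 counts (25.6 TPM) in replicate 2, the lowest of the 5 Snord genes with a level. Snord8 held a single count in replicate 2. The other readable Snord genes (Snord13, Snord23, Snord43, Snord67, Snord89 and Snord90) were at 0, with lengths of 104 to 111 bases, at which 3 counts come to at least 15.3 TPM in replicate 1 and 7.95 TPM in replicate 2.

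**Figure D2:**
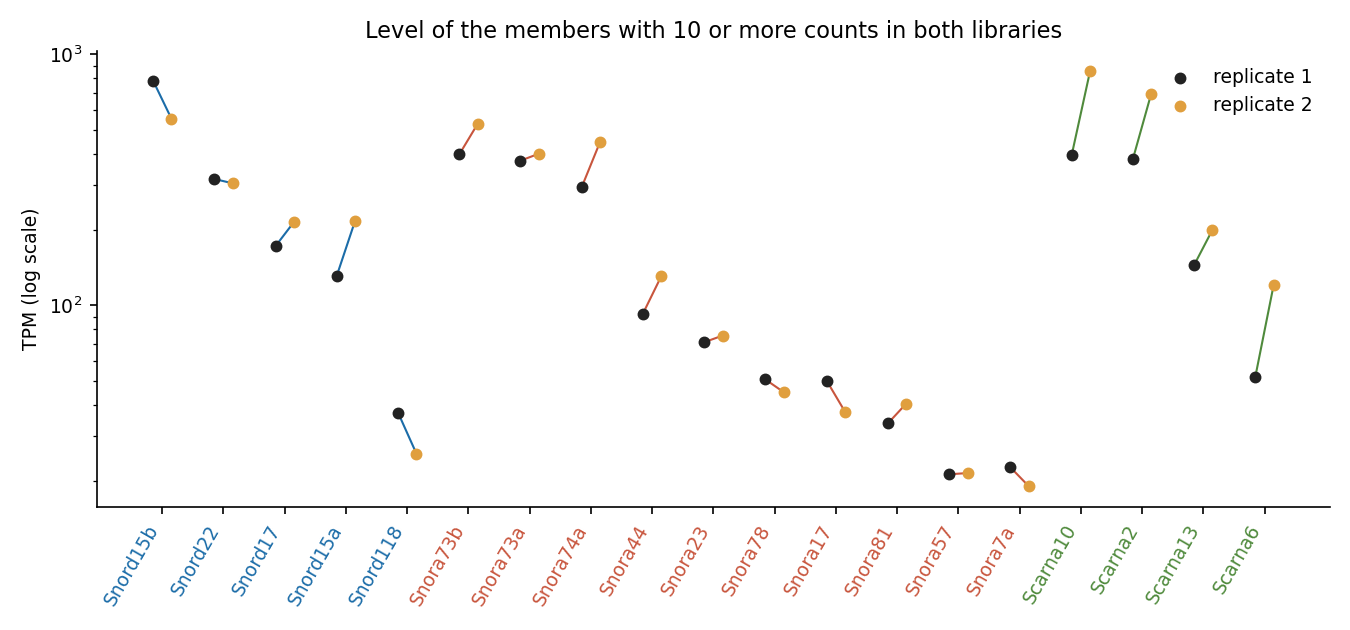
TPM (log axis) of the 19 members with at least 10 expected counts in both libraries, with replicate 1 as a dark point, replicate 2 as an orange point and the line between them coloured by class. In 13 of the 19 the TPM was higher in replicate 2, including all 4 Scarna genes, whereas Snord15b, Snord22 and Snord118 were higher in replicate 1.

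Known families were described from lists. Of the snoRNAs that act in cutting ribosomal RNA, 9 of 13 listed symbols were annotated and 5 of those were at least 100 bases long. Snord22, Snora73a, Snora73b and Snord118 held counts and reached 1 TPM in both libraries, while Snord13 was at 0 and the Snord14 genes were under the length limit. Of the snoRNAs listed for the hosts Gas5 and Snhg1, 5 genes were annotated under these symbols, and Snord22 was the single one of at least 100 bases and the single one with counts. The imprinted family was represented by 17 Snord116 genes, Snord64 and Snord107, none of which reached 100 bases, so all 19 were at 0. The 17 Snord116 genes, whose human counterparts lie in the region deleted in Prader-Willi syndrome, held 4 distinct sequences, and 14 of them shared the sequence printed above for Snord116l1.

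The position of the members in the annotation was compared with their level. Of 150 members, 81 lay in an intron of the longest same-strand gene holding them, 52 within an exon, mostly of retained-intron transcripts, 8 overlapped part of an exon and 9 lay outside any same-strand gene. The host was protein-coding for 90, and a ribosomal protein gene for 28, of which 14 members were of readable length. Snord32a, Snord33, Snord34 and Snord35a were not among the 28, because Gm45713 was their longest host and Rpl13a the shorter one. Likewise Snord68 had Gm20388 as its longest host and Rpl13 as the shorter one. In 16 members, all of at least 100 bases, the member's TPM exceeded that of its host in both libraries (4 Snord, 9 Snora and 3 Scarna). A small effective length raises the TPM of short members, so this count holds for the TPM scale. Among them, Snord15b, Snord22, Snora44, Snora26, Snora9 and Snora61 lie within an exon of that host. Reads of the member and of that exon cannot be told apart, so these levels are not separately measured. The same holds for Snora74a and its shorter host AC121821.1. Across the 54 members of readable length with a host, Spearman's rho between the member's counts per kilobase and the host's TPM was -0.13 in replicate 1 and -0.10 in replicate 2, as a description over members that share a library. With the shortest host in place of the longest, rho was -0.065 and -0.059.

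Members in highly expressed hosts differed widely in level. Snord15b lay above its host Rps3, which had 127 TPM (replicate 1) and 182 TPM (replicate 2), and Snord15a lay close to it. Snora64 had 13.4 TPM (replicate 1) and 12.0 TPM (replicate 2), against 122 TPM (replicate 1) and 220 TPM (replicate 2) for Rps2. Snord43 was at 0, against 102 TPM (replicate 1) and 211 TPM (replicate 2) for Rpl3. At its length 3 counts come to 20.4 TPM in replicate 1 and 10.6 TPM in replicate 2, so its 0 is a weak limit. Snora31 had 11.8 TPM (replicate 1) and 10.3 TPM (replicate 2), against 549 TPM (replicate 1) and 872 TPM (replicate 2) for Tpt1, which encodes a translationally controlled tumour protein. High host levels thus accompanied members listed at 0, members below the host and members above it.

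**Figure D3:**
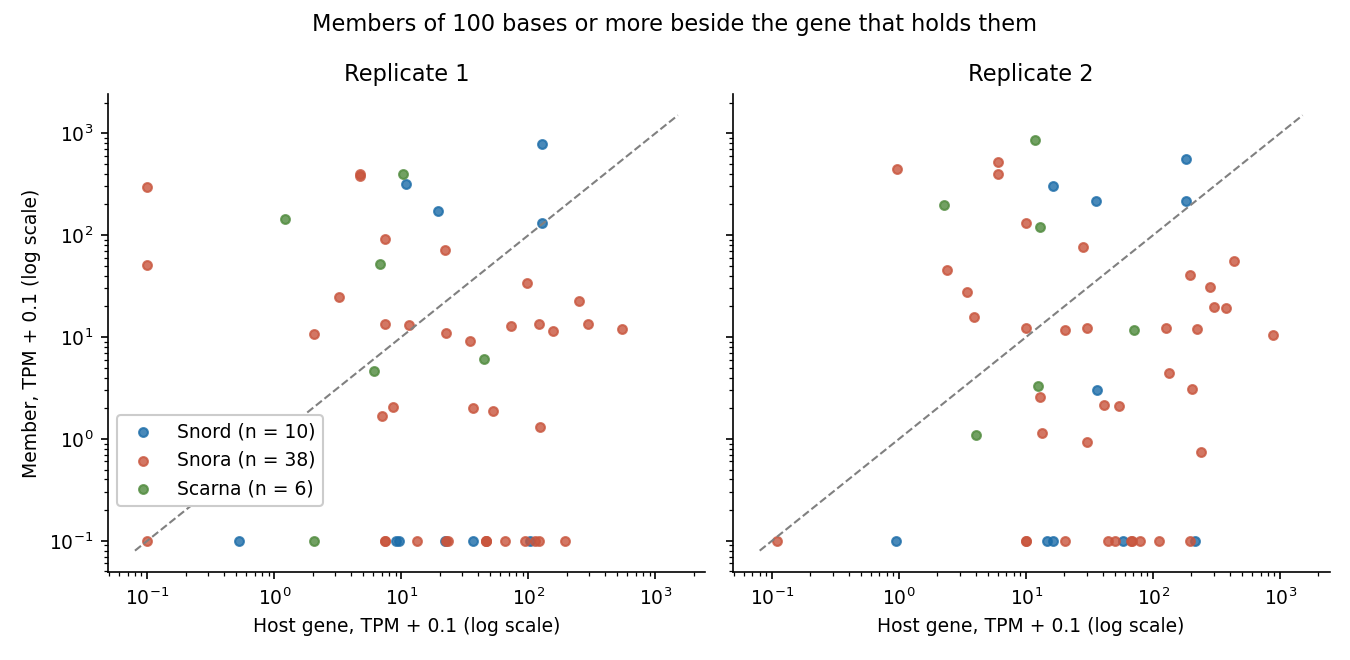
TPM plus 0.1 of each member of at least 100 bases (vertical, log axis) against that of the longest same-strand gene that holds it (horizontal, log axis), in replicate 1 (left) and replicate 2 (right). Points above the dashed line are members whose level exceeded that of the host, which held in both libraries for 16 of the 54. Some of these share their sequence with an exon of the host.

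Differences between the libraries were tested with an exact binomial test per gene on rounded counts, scaled by TMM and adjusted by Benjamini-Hochberg over the 16882 genes whose counts summed to at least 20. The test sets these libraries against counting error and holds no estimate of the spread between animals. Of 28 members tested, 13 passed an adjusted p of 0.05 (46.4%), against 25.0% of all genes tested. Of those, 9 were higher in replicate 1 (32.1%, against 12.4% of all genes) and 4 were lower in it (14.3%, against 12.6%). At least 2-fold apart were 8 of 28 members (28.6%), against 5.25% of all genes. Of these, 6 were higher in replicate 1 (21.4%, against 3.23%) and 2 lower (7.14%, against 2.02%). Snora68, Snora7a, Snora64 and Snora5c, all with few counts, were 2-fold apart without passing an adjusted p of 0.05. A summed count of at least 200 was reached by 12 of the 28 members, against 11544 of the 16882 genes, so the shares at 2-fold compare unlike depths. Scaling set the direction of many calls: by total counts 1 member was called higher and 13 lower, and by spike-in counts 8 higher and 5 lower.

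The median log2 ratio of replicate 1 over replicate 2 was 0.54 over the 28 members, 22 of which were above 0, against -0.014 over all genes tested. Total-count scaling shifted the median of all genes to -0.90 and spike-in scaling to -0.14, and the gap of 0.56 between the members and all genes is the same under each by construction. With a summed count of at least 200 the gap was 0.33 over 12 members. By class the median was 0.81 for Snord (5 tested), 0.65 for Snora (19 tested) and -0.24 for Scarna (4 tested). Genes of like kind were also above 0, with a median of 0.75 over 51 snoRNA and scaRNA genes with other symbols and 1.19 over 33 genes of spliceosomal and related small nuclear RNAs, whereas protein-coding genes had -0.026. A TMM ratio above 0 can go with a lower TPM in replicate 1, because TPM is a share of all RNA listed and TMM is relative to the bulk of genes.

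Snord15b had the smallest adjusted p among box C/D members, at 1.24 (95% counting interval 1.09 to 1.40, adjusted p = 5.48e-51), and its TPM was higher in replicate 1 as well. Snord22 was at 0.81 (adjusted p = 4.06e-06), Snord17 at 0.43 (adjusted p = 2.3e-05) and Snord118 at 1.30 (adjusted p = 0.0178), all higher in replicate 1. Snord15a, from the same host as Snord15b, was at 0.023 with an interval of -0.32 to 0.33, so the intervals of the pair did not overlap. Scaling by total counts turned Snord22 to -0.072, Snord17 to -0.46 and Snord15a to -0.86.

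Among box H/ACA members, Snora73a was higher in replicate 1 at 0.65 (adjusted p = 2.13e-18), Snora73b at 0.34 (adjusted p = 4.4e-06), Snora23 at 0.66 (adjusted p = 0.00277) and Snora17 at 1.17 (adjusted p = 0.0154). Scaling by total counts turned Snora73a to -0.23, Snora73b to -0.54 and Snora23 to -0.22, and left Snora17 at 0.29. Snora74a was at 0.15 (adjusted p = 0.178), with an interval of -0.0089 to 0.30, and was not called. Snora52, in an exon of the ribosomal protein gene Rplp2, was lower in replicate 1, with 0 counts there and 23.6 in replicate 2 (adjusted p = 0.0155). Its sequence also lies in a retained-intron transcript of Rplp2, and the deposited posterior SD was 2.25 counts in replicate 1 and 7.84 counts in replicate 2, so the split of shared reads is uncertain. It is left out, and 12 members are called, when members with an uncertain split are removed.

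Of the 4 long scaRNAs, 3 were called lower in replicate 1. Scarna10 was at -0.37 (adjusted p = 1.59e-17), Scarna6 at -0.47 (adjusted p = 0.00232) and Scarna2 at -0.12 (adjusted p = 0.00488), all lower in replicate 1. In the second quantification, described below, Scarna10 reversed to 7.17. Scarna13 was the exception at 0.28 (adjusted p = 0.00695), higher in replicate 1 on this scale and lower on TPM, and scaling by total counts turned it to -0.61. The ratio went with length: Spearman's rho between annotated length and log2 ratio was -0.37 over the 28 members, as a description. Members of 120 to under 150 bases had a median of 0.72 (18 tested) and those of 150 to 450 bases 0.31 (10 tested). Other single-transcript genes of the same lengths had medians of 0.77 (41 tested) and 0.24 (244 tested), and the part of RNA or fragment length in the difference was not tested.

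**Figure D4:**
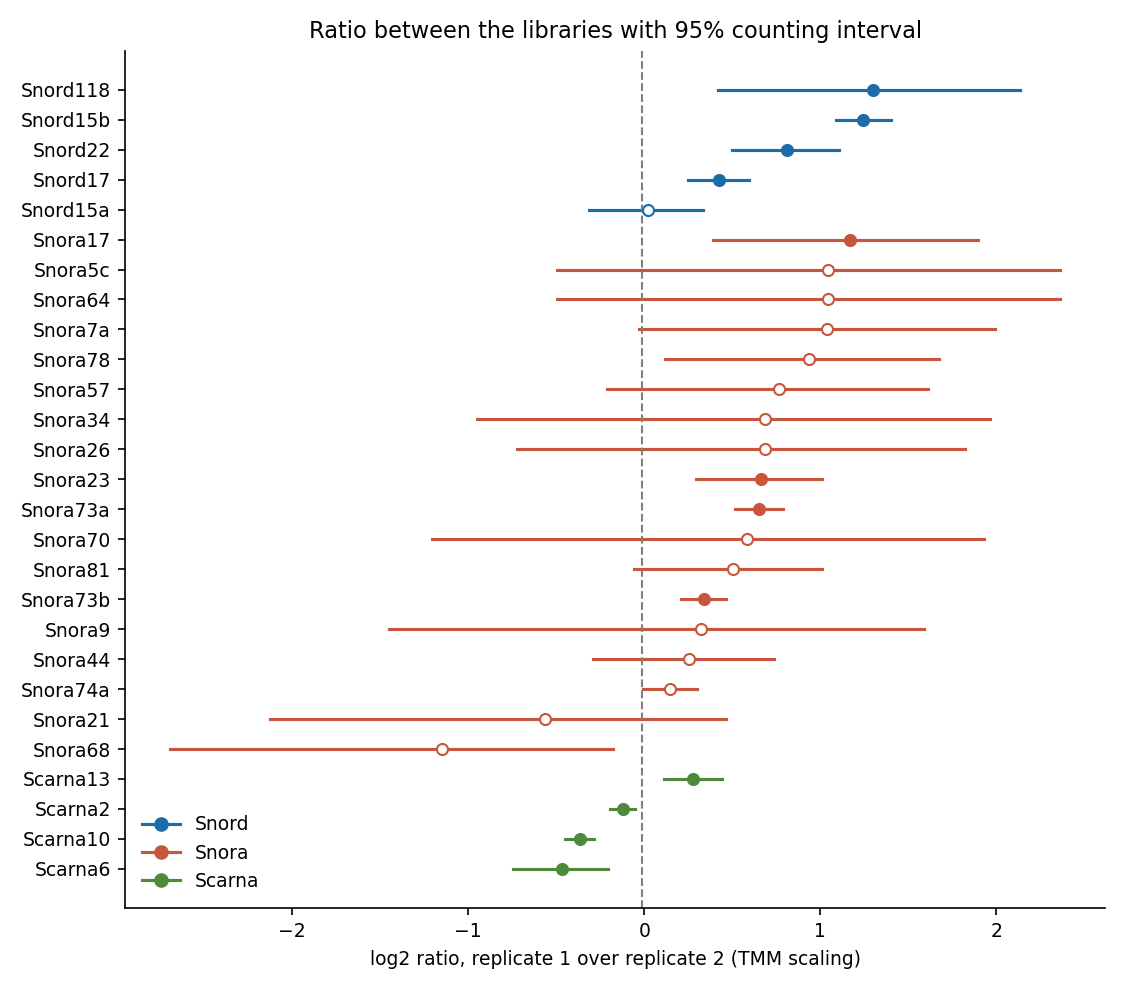
Log2 ratio of expected counts, replicate 1 over replicate 2, with its 95% counting interval for the 27 tested members that held counts in both libraries, coloured by class. Filled points passed an adjusted p of 0.05, open points did not, and the dashed line is the median of all genes tested (-0.014). Most Snord and Snora points lie right of the line and 3 of 4 Scarna points lie left of it.

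The proteins that bind these RNAs were measured in the same libraries. All 5 box C/D core proteins were above 1 TPM, with Nop56 at 26.0 TPM in replicate 1 and 34.4 in replicate 2, Nop58 at 24.3 TPM (replicate 1) and 33.9 TPM (replicate 2), and the methyltransferase Fbl at 22.6 TPM (replicate 1) and 30.3 TPM (replicate 2). All 4 box H/ACA core proteins were detected, with Nop10 at 28.2 TPM (replicate 1) and 44.5 TPM (replicate 2), Nhp2 at 16.2 TPM (replicate 1) and 22.4 TPM (replicate 2), Gar1 at 13.1 TPM (replicate 1) and 16.8 TPM (replicate 2) and the pseudouridine synthase Dkc1 at 9.94 TPM (replicate 1) and 15.5 TPM (replicate 2). The 14 assembly and Cajal body factors were also all detected, with Pih1d1, Ruvbl2 and Nolc1 highest at means of 18.7, 13.8 and 12.9 TPM. In the exact test between the libraries 3 of 5, 1 of 4 and 1 of 14 of these genes were called higher in replicate 1 and none (0) lower, against 12.4% higher and 12.6% lower over all genes. The called ones were Nop56 (0.42), Fbl (0.34), Snu13 (0.29), Gar1 (0.49) and Nolc1 (0.54) in log2 ratio, and scaling by total counts turned each of them below 0 (-0.59 to -0.34).

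A second quantification of the same libraries, deposited per transcript and summed per gene, lost most of the members. It held 559 counts of members in replicate 1 and 1787 in replicate 2, against 7423 and 22338 in the gene table, or 7.53 and 8.00%. Its effective lengths for the members were all above 0 (17.6 to 129 bases in replicate 1 and 22.6 to 115 bases in replicate 2), yet no member (0) had under 1 count in the gene table and 10 or more in the second quantification in both libraries, and 0 of the 89 members under 100 bases held a count there. Of the 19 members with at least 10 counts in the gene table in both libraries, 15 had under 1 count in the second quantification in both (78.9%), against 1.46% of 15037 annotated genes. Among other annotated genes of the members' length range the share was 66.0% of 241, and among snoRNA and scaRNA genes with other symbols it was 95.7% of 47.

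By class, 10 of 10 Snora, 4 of 5 Snord and 1 of 4 Scarna genes were lost. Scarna2 held 418 counts in replicate 1 and 1785 in replicate 2 in the second quantification, against 1968 and 6887 in the gene table. Scarna10 held 138 counts in replicate 1 and 2 in replicate 2, against 1462 and 6056, so the libraries disagreed there by far more than in the gene table. Scarna13 held 2 counts in replicate 1 and 0 in replicate 2 against 416 and 1104, Snord17 held 1 and 0 against 391 and 936, and Scarna6 held 0 in both against 141 and 629. The largest losses among Snora genes were those of Snora73b, Snora73a and Snora74a, all at 0 in the second quantification. Scarna2 was thus the single member to keep 10 or more counts in both libraries there.

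**Figure D5:**
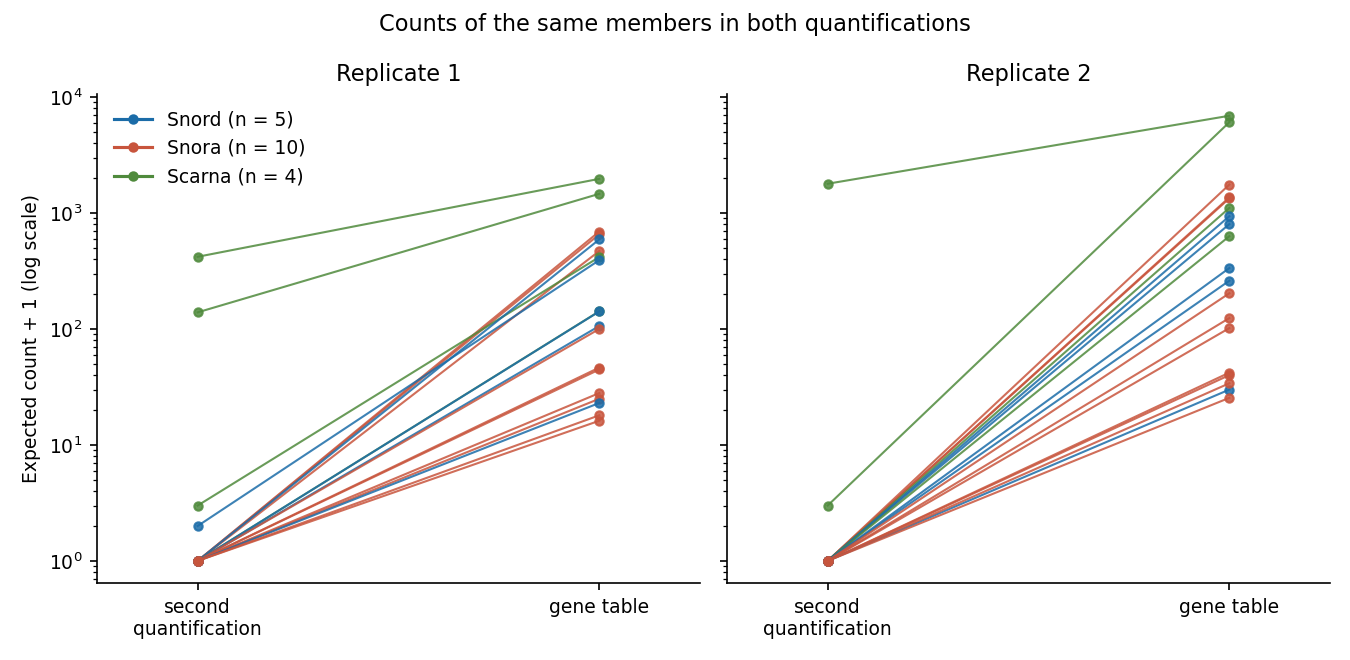
Expected count plus 1 (log axis) of the 19 members with at least 10 counts in both libraries of the gene table, in the second quantification (left of each panel) and in the gene table (right of each panel), joined by a line coloured by class. Most lines reach the bottom in the second quantification, and Scarna2 is the highest there in both libraries.

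Whether the counts lay with the host genes in the second quantification was looked at by sequence. The sequence of 6 lost members (Snora44, Snora74a, Snora7a, Snora81, Snord15b and Snord22) lies within another annotated transcript. For Snora74a that transcript belongs to the non-coding gene AC121821.1, which held 676 counts in replicate 1 and 1916 in replicate 2 in the second quantification, against 69.6 and 225 in the gene table. Snhg1, which holds Snord22, had 367 counts in replicate 1 and 729 in replicate 2, against 134 and 417. Snhg12, which holds Snora44, had 204 counts in replicate 1 and 429 in replicate 2, against 85.8 and 240.0, and for Rps3, which holds Snord15b, the values were 2953 and 7192, against 2476 and 7591. The first 3 hosts were thus higher in the second quantification in both libraries, and Rps3 in replicate 1 alone.

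The other 13 members have a sequence found in no other annotated transcript, and 9 of them were lost. These 9 held 1779 counts in replicate 1 and 4399 in replicate 2 in the gene table. Snora17, Snora57 and Snord118 among them lie in no same-strand gene. The shortest host genes of the others held 4953 counts in replicate 1 and 12505 in replicate 2 in the second quantification, against 4280 and 12487 in the gene table. Of those, Rps3, which also holds Snord15b, had 2953 and 7192, against 2476 and 7591. All counts were 22007795 in replicate 1 and 33594884 in replicate 2 in the second quantification, against 19366343 and 33728646 in the gene table. Snhg3, the shorter host of the U17 pair, had 40.0 counts in replicate 1 and 125 in replicate 2, against 44.2 and 148, and Rcc1, the longer one, had 158 and 334, against 143 and 299. In the gene table Snora73b held 691 counts in replicate 1 and 1756 in replicate 2, and Snora73a held 653 and 1336, so the counts of the pair were not found with either host.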

How the data were processed

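Total RNA of the adrenal gland was measured in 2 libraries of 1 group. Per the labels, coordinates are on mm10, and the notes deposited beside the files name GENCODE M21. No source used here names the quantification programs. For each library the authors deposited expected counts (estimated reads per gene, which need not be whole) and TPM in a gene table, and a second quantification per transcript with estimated counts and TPM, here summed per gene. Members, gene lists and tests were chosen with earlier results of these data known. The genes named are the members with the highest level or count in each class, the highest and lowest ratios and the largest losses, plus the lists. Counts were rounded for TMM (edgeR 4.0.16, R 4.3.3) and for the exact two-sided binomial test (scipy 1.17.1) with Benjamini-Hochberg adjustment. Ratios had a prior of 1 count. The test was checked on simulated counts with known changes and counting error only. That check does not cover spread between animals or the differing coding share of the libraries. With 1 group, edgeR's quasi-likelihood test and DESeq2 could not be fitted. Box motifs and sequences came from the annotation's transcripts, and the pairs were aligned with Biopython 1.88. Other scalings, minimums, thresholds and length scales, the second quantification and each library alone were tried. The total of 19366343 and 33728646 counts sets the precision, and all p-values and intervals cover counting error only.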

Additional observations from a re-analysis of the deposited data

How the results depend on the processing

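Of 132 values under other settings, 98 stayed within the bounds set for a like value: the same direction and side of the threshold, a count within 1.5 times or a level within 1 SD. These bounds do not see the direction of calls, which total-count scaling set at 1 higher and 13 lower, against 9 higher and 4 lower with TMM. In the second quantification 2 members were tested and 2 called, the Scarna median was 3.36, Scarna10 reversed to 7.17, and 0 Snord, 0 Snora, 2 Scarna and thus 2 of all members were detected. Scaling by total counts gave class medians of -0.072 (Snord), -0.23 (Snora) and -1.13 (Scarna) and reversed Snord22 (-0.072), Snora23 (-0.22), Snora73a (-0.23), Snord17 (-0.46), Snord15a (-0.86) and Snora74a (-0.74), and also turned Snora73b (-0.54) and Scarna13 (-0.61). Spike-in scaling gave 0.68, 0.52 and -0.37 and reversed Snord15a (-0.11). A minimum of 200 counts gave 0.62 (Snord) and 0.50 (Snora), and a prior of 0.5 gave 0.64 (Snora). At 10 counts in both libraries, 10 Snora and 19 of all members were detected. On annotated length the sums were 559 TPM (Snord), 967 TPM (Snora), 1245 TPM (Scarna) and 2772 TPM (all). With a minimum of 100 counts, 3 of 3 Snora and 7 of 11 members were lost. Under 0.1 of the gene table count, 3 of 4 Scarna were. Without replicate 1, 21 of 21 Snora, 3 of 5 Scarna and 29 of 31 members were lost. Without replicate 2, 10 of 10 Snora, 1 of 4 Scarna and 15 of 19 members were lost. Leaving out the 5 tested members whose split of shared reads was uncertain, a setting chosen after seeing the data, left 12 called. Other causes of these shifts were not tested. No paired analysis was possible because the series has 1 group. Whether depth or shared sequence set the zeros of longer members was not tested. Members under 100 bases could not be counted.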
